A study of Homo sapiens with 6 samples.

Results

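The 3′ ends of 6 human genes for heat shock proteins and chaperones were counted: HSP90AA1, HSP90AB1, HSPA5, HSPA8, HSPA9 and HSPD1. The genes were chosen by name, and their reads are those that end on the gene's strand inside a fixed window of the hg19 genome build. The windows were chr14:102546000-102607000 (minus strand) for HSP90AA1, chr6:44214500-44223000 (plus strand) for HSP90AB1, chr9:127996000-128004000 (minus strand) for HSPA5, chr11:122927000-122933500 (minus strand) for HSPA8, chr5:137889500-137911500 (minus strand) for HSPA9 and chr2:198350000-198365500 (minus strand) for HSPD1. They held 33 of the 49965 cleavage sites called in all libraries, and 29 of these 33 held at least 1% of their gene's reads in at least 1 library.

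Chaperones bind unfolded or partly folded proteins and help them to reach or keep their shape. The Hsp90 and Hsp70 families work through cycles of ATP binding and hydrolysis in the cytosol, the endoplasmic reticulum and the mitochondria, and the chaperonin Hsp60 encloses its clients in a chamber. Their mRNAs are made at high levels in growing cells, and several of them are induced further by heat or by unfolded protein.

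HEK293 cells, a human embryonic kidney line, were profiled by A-seq, which selects polyadenylated RNA, fragments it and primes reverse transcription at the start of the poly(A) tail. Cleavage factor Im binds nascent RNA near poly(A) sites and is built from a small subunit, CF Im25, and a larger one, CF Im59 or CF Im68. The libraries compared were CF Im68 siRNA and its scrambled siRNA control, both fragmented with RNase I, and siRNA against CF Im25, siRNA against CF Im59, the scrambled control for both and cells without siRNA, all fragmented by alkaline hydrolysis. Cells with siRNA were harvested 3 days after transfection with a lipid reagent, all groups were of the 1 cell line, and each group held 1 library, so that no difference could be set against a spread between replicates and no p-value is given. Whether each target RNA fell was not analysed here. Intervals are 95% intervals for the counting of reads only, and reads copied by PCR are not independent molecules. In bulk RNA, fewer cells of a type and less RNA per cell cannot be told apart.

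The sequences that precede the sites help to tell the sites of 1 gene apart. Near most human poly(A) sites lies a signal, of which AATAAA is the most common form and ATTAAA a variant. The 30 bases that end at the sites of the HSPA5 and HSPA9 pairs, the 3′ UTR pair of HSP90AA1, the HSP90AB1 pair and the main HSPD1 site are given 5′ to 3′, from GENCODE v29 mRNA sequences, with AATAAA or ATTAAA in capitals where the RNA strand holds it. A site was placed by its distance from the most downstream site or end of its gene, so the placement can be off by a few bases. The bases shown end at the named position. At HSPA9 site 137891025 and HSP90AA1 site 102547409 the most used position differed between the fragmentation methods, as given below.
HSPA5, site 127998521: caccAATAAAtgtttgttatttacactggt
HSPA5, site 127997134: gttactgaatATTAAAaagatagacttcaa
HSPA9, site 137891518: tatgtttcatggatgaatgtcatatgccat
HSPA9, site 137891025: tgcccaagcaaaatatatatttgagttcta
HSP90AA1, site 102547931: aatATTAAAaagtctgtatggcatgacaac
HSP90AA1, site 102547409: agtgctcgagtcacattctgcttaaagttg
HSP90AB1, site 44221593: cattttgttctgaaATTAAAgtatgcaaaa
HSP90AB1, site 44221620: aAATAAAgaatatgccgtttttatacagtt
HSPD1, site 198351310: gtgtAATAAAaatttgtttaaagttaataa
The upstream HSPA5 site and the ends of HSP90AB1 and HSPD1 had AATAAA, while the downstream HSPA5 site, the upstream HSP90AA1 site and the upstream HSP90AB1 site had ATTAAA. Neither HSPA9 site held either motif in this window, nor did the downstream HSP90AA1 site. Of the 10 bases that follow, 6 were A at the downstream HSP90AA1 site and at the upstream HSP90AB1 site. HSPA9 site 137891518 had 5, and the other shown sites with mRNA bases after them had 2 or 3. The part of priming inside the mRNA at these sites was not tested. Of the last 30 bases of 83129 protein-coding transcripts, 30.6% held AATAAA and a further 7.80% held ATTAAA without it. All annotated transcripts of a gene were counted, and whether each ends at a cleavage site was not checked. These percentages are therefore not those of poly(A) sites.

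Library totals lay between 5351980 reads (scrambled siRNA, RNase I) and 18183644 reads (no siRNA). Mitochondrial reads made up 8.37% of the CF Im68 library and 4.16% of its scrambled control, against 1.07% to 1.91% of the alkaline libraries. Reads of the 6 genes were scaled to counts per 1000000 (CPM) of the reads in all nuclear units, a unit being a run of sites on 1 strand with gaps of at most 5 kb. Together the 6 genes held 2163 CPM in the CF Im68 library and 3981 CPM in its scrambled control. In the alkaline libraries they held 749 CPM with CF Im25 siRNA, 665 CPM with CF Im59 siRNA, 989.6 CPM with scrambled siRNA and 675 CPM without siRNA.

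**Figure D1:**
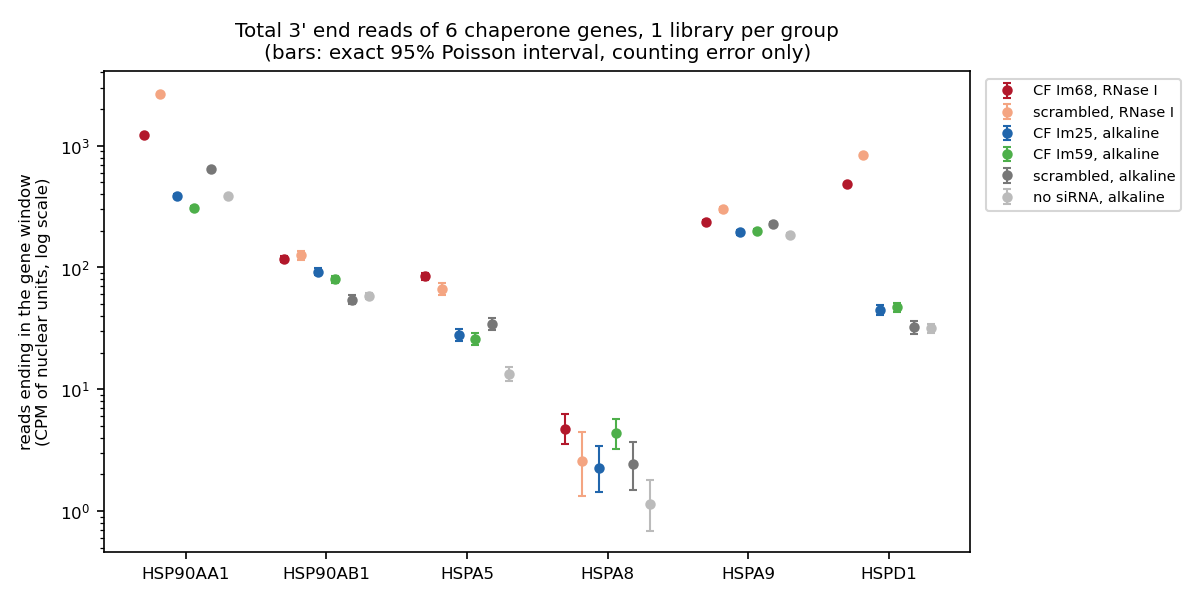
Reads that ended in the window of each gene, in CPM on a log axis, with 1 point per library and bars for the exact 95% Poisson interval. HSP90AA1 and HSPD1 stood higher in both RNase I libraries than in the 4 alkaline ones, and HSPA8 stayed below 5 CPM in every library.

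HSP90AA1 encodes the stress-inducible cytosolic form of Hsp90 and had the most reads of the 6 genes in each of the 6 libraries. It gave 1236 CPM (13541 reads) with CF Im68 siRNA and 2653 CPM (12437 reads) in the RNase I scrambled control. In the alkaline libraries it gave 388 CPM with CF Im25 siRNA, 309 CPM with CF Im59 siRNA, 639 CPM with scrambled siRNA and 385 CPM without siRNA. The 3 knockdown libraries thus lay below their scrambled controls, but the CF Im25 library stood at the level of cells without siRNA. A gene was called higher or lower where it differed by at least 2-fold, with at least 50 reads in 1 library and an interval of the ratio that excluded 1. By this rule HSP90AA1 was lower with CF Im68 siRNA, at 0.466 times its control (0.455 to 0.477), and with CF Im59 siRNA, at 0.484 times (0.464 to 0.505), and the ratio of 0.608 for CF Im25 siRNA was not called. Both calls rest on the scaling. With edgeR's TMM scaling the log2 ratios were -0.92 for CF Im68 and -0.95 for CF Im59, neither of which reached 2-fold, and against cells without siRNA the log2 ratio for CF Im59 was -0.32.

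Most HSP90AA1 reads ended far upstream of the end of the mRNA, at site 102551279. This site held 62.7% of the reads with CF Im68 siRNA and 74.7% in its scrambled control, a difference of -12.0 points (-13.1 to -10.9). Among the alkaline libraries it held 76.5% with CF Im25 siRNA, 83.9% with CF Im59 siRNA, 84.6% with scrambled siRNA and 83.8% without siRNA. The position lay 4205 nt upstream of the most downstream recorded end, 102547074, which had at most 7 reads in any library. The most A-rich 30 bases of the HSP90AA1 mRNA lie in its coding part, with 23 A, and their first base lies 4203 nt upstream of the annotated end in GRCh38. They are shown with each A in capitals because the A-seq primer ends in a run of dT, per the labels' protocols.
HSP90AA1, most A-rich stretch: AAAgAAgAAgAAAAAgAAAAAgAAgAgAAA
Of all protein-coding transcripts, 5.13% hold a 30-base stretch with as many A. These 2 distances come from different genome builds, so that their likeness assumes a gene of the same length in both, and the part of priming inside the mRNA in these reads was not tested. Without site 102551279, an alternative chosen after seeing the data, HSP90AA1 gave 460 CPM with CF Im68 siRNA and 671 CPM in its scrambled control, a ratio of 0.686 (0.656 to 0.718). Likewise it gave 91.3 CPM with CF Im25 siRNA, 49.7 CPM with CF Im59 siRNA, 98.0 CPM with scrambled siRNA and 62.3 CPM without siRNA. None of the knockdown ratios reached 2-fold without this site: 0.931 (0.847 to 1.02) for CF Im25 and 0.507 (0.455 to 0.564) for CF Im59. The CF Im59 ratio thus stayed close to the 0.484 of all reads, while the CF Im68 ratio differed from the 0.466 of all reads.

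Within the 3′ UTR of HSP90AA1, sites 102547931 and 102547409 both held larger shares of the reads with CF Im68 siRNA and with CF Im25 siRNA than in their controls. At 102547409 the share was also larger with CF Im59 siRNA. Site 102547931 held 683 reads (62.3 CPM, 5.04% of the gene) with CF Im68 siRNA, against 16 reads (3.41 CPM, 0.129%) with scrambled siRNA in RNase I. After alkaline hydrolysis it held 393 reads (40.6 CPM, 10.5%) with CF Im25 siRNA, 43 reads (3.73 CPM, 1.21%) with CF Im59 siRNA, 86 reads (9.91 CPM, 1.55%) with scrambled siRNA and 81 reads (4.90 CPM, 1.27%) without siRNA. The shares differed by 4.92 points (4.55 to 5.30) for CF Im68 and by 8.92 points (7.91 to 9.98) for CF Im25, while the difference for CF Im59 was -0.34 points (-0.82 to 0.16). The last site, 102547409, held 20.2% of the gene's reads (249 CPM) with CF Im68 siRNA and 10.3% (274 CPM) in its control, a difference of 9.82 points (8.96 to 10.7), larger than that of 102547931. It held 3.70% (14.4 CPM) with CF Im25 siRNA, 3.99% (12.3 CPM) with CF Im59 siRNA, 1.64% (10.5 CPM) with scrambled siRNA and 2.63% (10.2 CPM) without siRNA. Over scrambled siRNA these were differences of 2.06 points (1.39 to 2.78) for CF Im25 and 2.34 points (1.64 to 3.10) for CF Im59. The larger share with CF Im68 siRNA went with a slightly lower CPM at this site, while 102547931 was higher in both share and CPM. TMM scaling adds 0.18 to each CF Im68 log2 ratio, enough to reverse the small CPM difference at 102547409. The pair of both sites, 522 nt apart, was chosen after the site counts were seen. Its proximal share, the percentage of the reads at both sites that end at the upstream one, was 20.0% with CF Im68 siRNA and 1.23% in its control. It was 73.9% with CF Im25 siRNA, 23.2% with CF Im59 siRNA, 48.6% with scrambled siRNA and 32.5% without siRNA. Against scrambled siRNA the share was 25.3 points higher with CF Im25 siRNA and 25.3 points lower with CF Im59 siRNA. Against cells without siRNA these differences were 41.3 and -9.29 points, so the sizes for both CF Im25 and CF Im59 depend on the alkaline control used.

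The last HSP90AA1 site was not the same nucleotide in the RNase I and alkaline libraries. Position 102547409 itself took 62.3% of the site's 2729 reads with CF Im68 siRNA and 66.1% of 1285 reads in its scrambled control. In the alkaline libraries the most used position was 102547384 with CF Im25 siRNA (51.8% of 139 reads), with CF Im59 siRNA (58.5% of 142 reads) and without siRNA (57.7% of 168 reads), and 102547391 with scrambled siRNA (44.0% of 91 reads). These alkaline positions lie 25 nt or less downstream and so fall in the same site by the rule of 25 nt. The tandem pair of HSP90AA1 is therefore compared within a fragmentation method and not between methods. The other pair, of the 2 most used sites 102551279 and 102549455, had differences of 2.14 to 2.43 points in the knockdowns. Its proximal share was 86.9% with CF Im68 siRNA and 84.8% in its control, and 94.8% with CF Im25 siRNA, 94.7% with CF Im59 siRNA, 92.4% with scrambled siRNA and 93.4% without siRNA. Of the other described sites, 102549455 held 4.16% to 13.4% of the reads, and 102547477, 102551728 and 102590547 held at most 1.48% in any library.

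**Figure D2:**
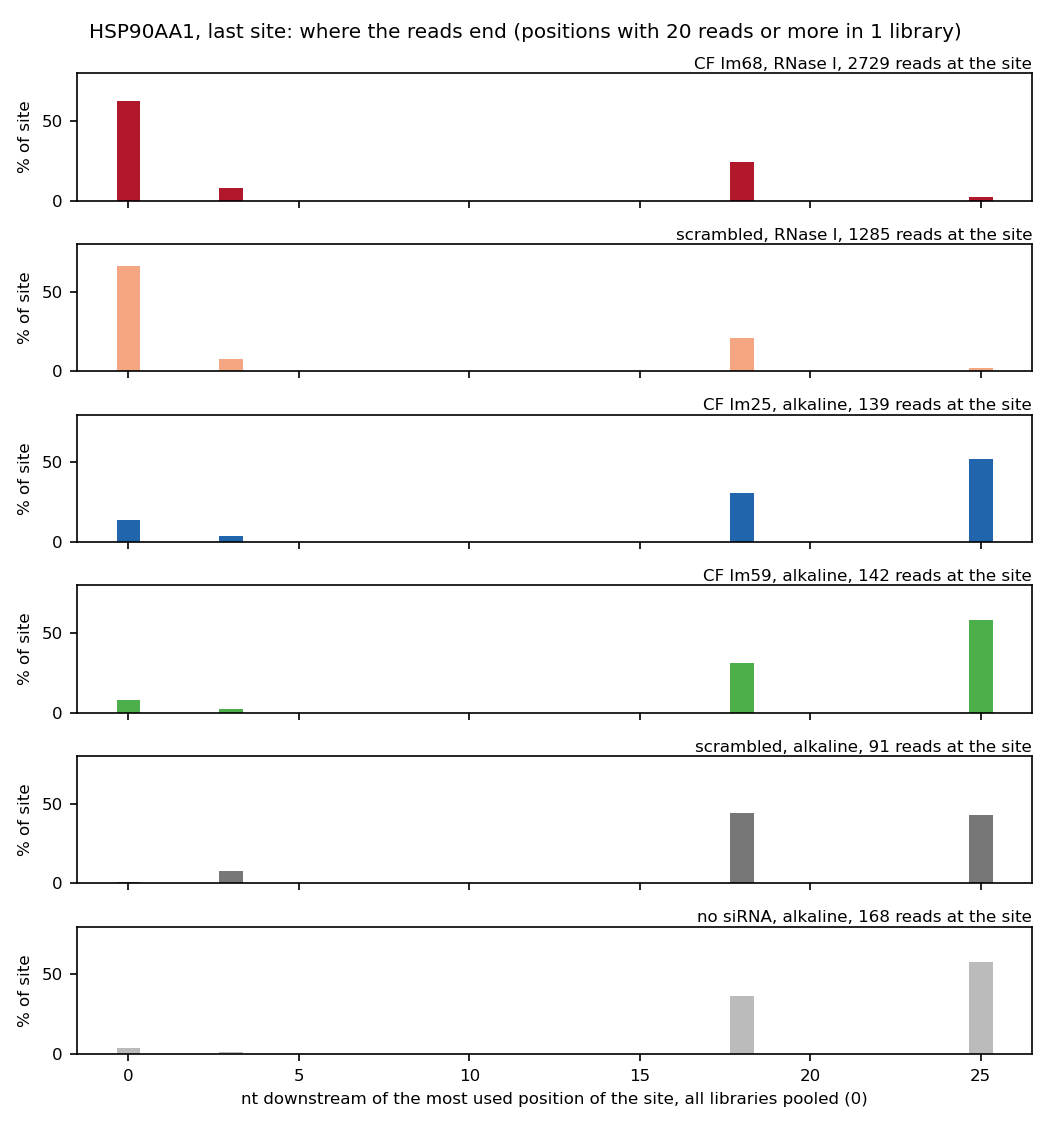
Share of the reads of the last HSP90AA1 site at each nucleotide, with 0 at its most used position over all libraries and 1 panel per library. In the RNase I libraries the tallest bar stands at 0, with 62.3% and 66.1% of the reads, and in the alkaline libraries the tallest bars stand further downstream.

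HSP90AB1 encodes the constitutive cytosolic Hsp90. It gave 118 CPM with CF Im68 siRNA and 126 CPM in its control, and 92.4 CPM with CF Im25 siRNA, 79.7 CPM with CF Im59 siRNA, 54.5 CPM with scrambled siRNA and 58.3 CPM without siRNA. The CF Im25 and CF Im59 libraries were both higher than both alkaline controls, at ratios of 1.70 (1.52 to 1.90) and 1.46 (1.31 to 1.64) over scrambled siRNA, but neither reached 2-fold. The CF Im68 ratio was 0.937, with an interval of 0.849 to 1.03. Its reads ended at 4 sites, and the main one, 44221620, held 71.7% to 87.4% of them, while 44221515 and 44218077 held at most 7.38% and 7.81%. The 2 most used sites lay 27 nt apart, and the upstream one took 3.67% of their reads with CF Im68 siRNA and 4.35% in its control. After alkaline hydrolysis it took 10.1% with CF Im25 siRNA, 11.3% with CF Im59 siRNA, 18.7% with scrambled siRNA and 10.5% without siRNA. The scrambled alkaline library stood apart from the other 3, so the differences of -8.56 points for CF Im25 and -7.45 points for CF Im59 were -0.40 and 0.71 points against cells without siRNA. The split also rests on the 25 nt rule, which gives reads between the sites to the downstream one: 342 reads with CF Im25 siRNA ended within 25 nt of 44221593, of which 79 were counted to it. With sites of 10 nt the differences were -1.34 points for CF Im25 and -0.48 points for CF Im59.

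HSPA5 encodes BiP, the Hsp70 of the endoplasmic reticulum and a regulator of the unfolded protein response, and its tandem sites 127998521 and 127997134 showed the 1 shift among the pairs of most used sites that passed the rule of size. The pair lies 1387 nt apart and was picked by its mean share over the 6 libraries. In the RNase I libraries another site, 127998813, held more reads than either, and the pair held 267 of 925 reads with CF Im68 siRNA and 145 reads in its control. With CF Im68 siRNA the upstream site had 236 reads and the downstream one 31, a proximal share of 88.4% (84.0% to 91.7%). In the scrambled control the counts were 75 and 70, a share of 51.7% (43.7% to 59.7%). A pair was called shifted at 20 points with at least 50 reads in both libraries and an interval that excluded 0, and the difference of 36.7 points (27.6 to 45.4) passed. In CPM the downstream site gave 2.83 with CF Im68 siRNA and 14.9 in its control, and the upstream site gave 21.5 and 16.0.

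In the alkaline libraries the HSPA5 share was 85.0% with CF Im25 siRNA (210 of 247 reads), 63.1% with CF Im59 siRNA (176 of 279), 69.5% with scrambled siRNA (191 of 275) and 51.0% without siRNA (101 of 198). The CF Im25 library was the highest of the 4, 15.6 points (8.40 to 22.5) above scrambled siRNA, which was not called, and 34.0 points above cells without siRNA, which was. The 2 control libraries differed by 18.4 points (9.52 to 27.1), more than CF Im25 siRNA differed from the scrambled one. CF Im59 siRNA lay between the controls, with a difference of -6.37 points from scrambled siRNA and an interval that held 0.

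The total reads of HSPA5 also set the alkaline controls apart. They came to 84.4 CPM with CF Im68 siRNA and 67.2 CPM in its control, and to 27.9 CPM with CF Im25 siRNA, 25.9 CPM with CF Im59 siRNA, 34.3 CPM with scrambled siRNA and 13.4 CPM without siRNA. Scrambled siRNA was 2.56 times cells without siRNA (2.14 to 3.06), a call, and the CF Im25 library was below the scrambled one (ratio 0.813) and above the one without siRNA (log2 ratio 1.06). Most of the difference between the methods lay at 1 position. Site 127998813 held 565 of 925 reads with CF Im68 siRNA (61.1%) and 144 (45.7%) in its scrambled control, against 8 of 270 with CF Im25 siRNA, 3 of 298 with scrambled siRNA and 6 of 222 without siRNA. With CF Im59 siRNA it had 0 of 299 reads, which allows a share of up to 1.003%. The remaining HSPA5 site, 127998615, held at most 7.89% in any library. The bases around 127998813 are shown, with the 20 bases after the site in capitals.
HSPA5, around site 127998813: ttgttaggaaAAAATTGAAAGAACTTAAGT
Of the 10 bases that follow the site 7 are A, no AATAAA or ATTAAA lies in the 30 bases before it, and the part of priming inside the mRNA was not tested. The pair of 127998813 and 127998521, 292 nt apart and chosen after the site counts were seen, had a proximal share of 70.5% with CF Im68 siRNA and 65.8% in its control, a difference of 4.78 points (-2.01 to 12.0), so the call holds for the downstream pair and not for this one. Without site 127998813, an alternative likewise chosen after seeing the data, HSPA5 gave 32.9 CPM with CF Im68 siRNA and 36.5 CPM in its control, a ratio of 0.901 in place of 1.26, and RNase I over alkaline in scrambled cells was 1.07 in place of 1.96.

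**Figure D3:**
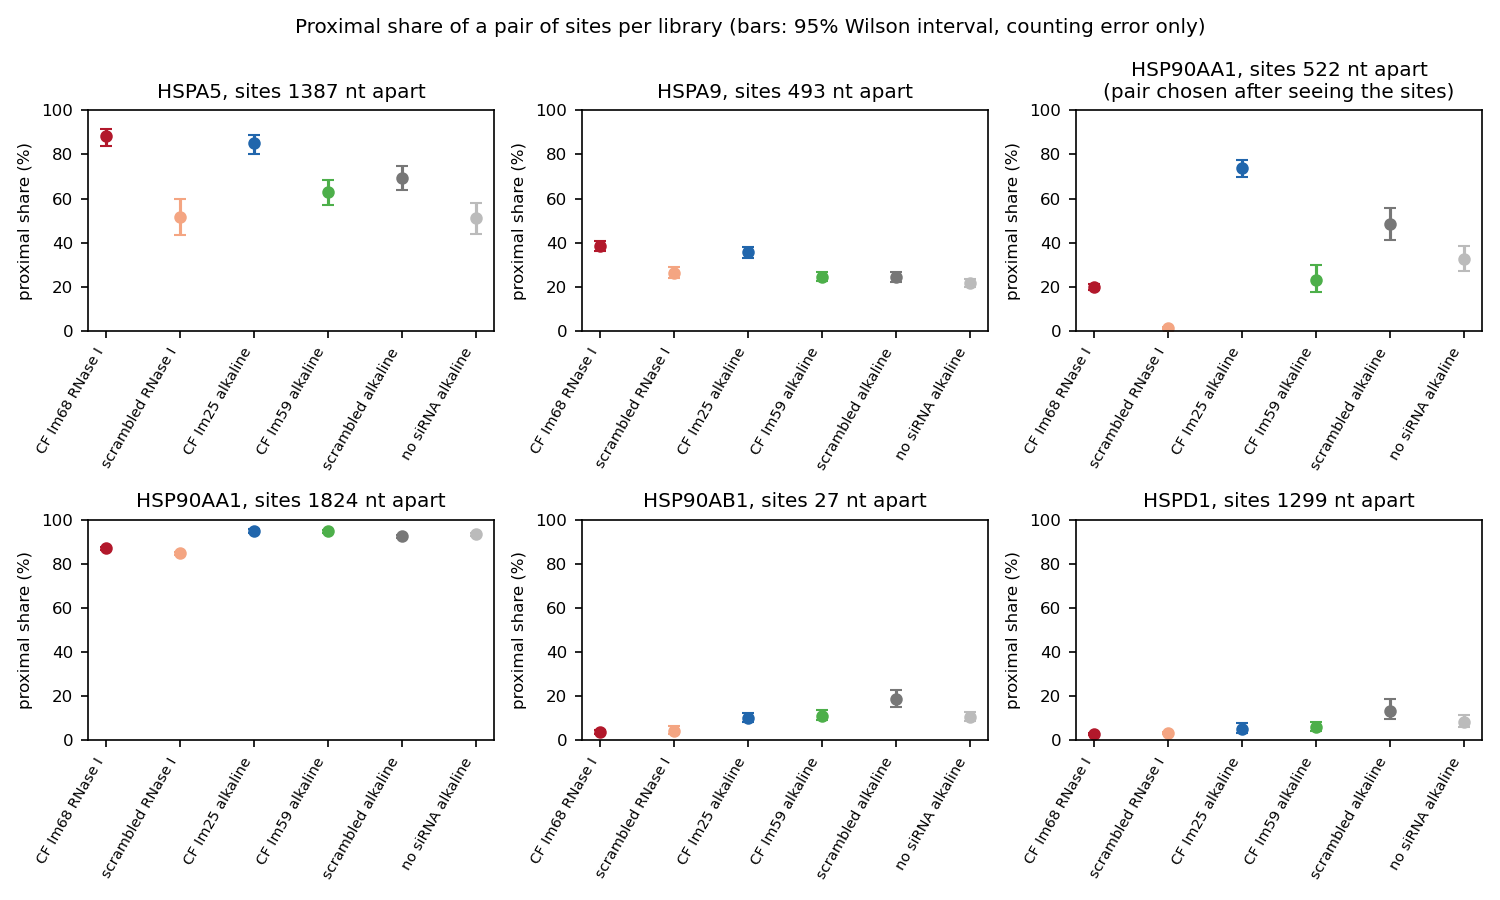
Proximal share of a pair of sites in each library, with bars for the 95% Wilson interval. For HSPA5 and HSPA9 the CF Im68 and CF Im25 points stand above the controls in their own fragmentation method, and so do those of the added HSP90AA1 pair, on a different level in each method.

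HSPA9 encodes mortalin, the mitochondrial Hsp70, and spread its reads over 11 sites, of which 9 held at least 1% in some library. Totals were 236 CPM with CF Im68 siRNA and 300.1 CPM in its control, and 194 CPM with CF Im25 siRNA, 199 CPM with CF Im59 siRNA, 227 CPM with scrambled siRNA and 185 CPM without siRNA. No HSPA9 total reached 2-fold in any comparison, and the knockdown ratios lay between 0.786 and 0.874. The pair 137891518 and 137891025, which are 493 nt apart, had a proximal share of 38.6% with CF Im68 siRNA (753 of 1952 reads) and 26.3% in its control (308 of 1170). The alkaline libraries gave 35.6% with CF Im25 siRNA (476 of 1337), 24.7% with CF Im59 siRNA (425 of 1721), 24.5% with scrambled siRNA (353 of 1443) and 21.7% without siRNA (510 of 2354). The differences were 12.3 points (8.89 to 15.5) for CF Im68 and 11.1 points (7.74 to 14.5) for CF Im25, each under the 20 points of the rule. The alkaline controls differed by 2.80 points for this pair and by 18.4 points for the HSPA5 pair. RNase I had only the scrambled library as a control, so the CF Im68 difference has no such value beside it. The CF Im59 difference was 0.23 points (-2.79 to 3.23). These differences are each within a fragmentation method. The most used position of the downstream site was 137891047 in both RNase I libraries. It held 318 of the site's 1199 reads with CF Im68 siRNA and 173 of 862 in its control. In the 4 alkaline libraries the most used position was 137891025, and 137891047 had 1 to 8 reads.

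The CPM at the 2 HSPA9 sites is given beside the shares, and the size of its changes depended on the control and the scaling. The downstream site gave 109 CPM with CF Im68 siRNA against 184 CPM in its control, and 89.0 CPM with CF Im25 siRNA against 126 CPM with scrambled siRNA. The upstream site gave 68.7 CPM with CF Im68 siRNA against 65.7 CPM, and 49.2 CPM with CF Im25 siRNA against 40.7 CPM. Without siRNA the downstream site gave 111 CPM and the upstream site 30.8 CPM. Against this control the CF Im25 difference was smaller downstream and larger upstream. TMM scaling adds 0.18 to each CF Im68 log2 ratio, which narrows the downstream difference and widens the upstream one. The last called site, 137890572, was taken as the end of the mRNA. It held 2.71% of the reads with CF Im68 siRNA and 2.35% in its control. In the alkaline libraries it held 15.3% with CF Im25 siRNA, 13.9% with CF Im59 siRNA, 14.6% with scrambled siRNA and 13.2% without siRNA. Its share differed by method and by at most 2.12 points between the alkaline libraries compared. The other 6 described HSPA9 sites held at most 7.16% of the reads in any library.

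HSPA8 encodes Hsc70, the constitutive cytosolic Hsp70, and was too thinly covered for a comparison of sites. It had 52 reads with CF Im68 siRNA and 12 in its control, and 22 with CF Im25 siRNA, 50 with CF Im59 siRNA, 21 with scrambled siRNA and 19 without siRNA. Its 1 called site, 122928199, was taken as the end of the mRNA. It held 2 of 52 reads with CF Im68 siRNA and 1 of 12 in its control. After alkaline hydrolysis it held 15 of 22 reads with CF Im25 siRNA, 44 of 50 with CF Im59 siRNA, 13 of 21 with scrambled siRNA and 17 of 19 without siRNA. In the RNase I libraries most reads ended between 122928591 and 122928597 instead, with 19 and 8 reads at 122928595. RefSeq lists 20 pseudogenes by symbol for HSPA8 and 22 for HSPD1, and how reads with several matches were counted is not given in the sources used here, so the totals of both genes are uncertain. The last 30 bases of none of the 6 mRNAs were found in a transcript of another gene with up to 2 mismatches. That search covered annotated transcripts only, and not the bases at upstream positions, where most HSP90AA1 reads and most RNase I reads of HSPA8 ended. It therefore cannot show whether reads with several matches entered the counts.

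HSPD1 encodes Hsp60, the mitochondrial chaperonin, and differed between the methods more than any other of the 6 genes. It gave 484 CPM with CF Im68 siRNA and 833 CPM in its control, and 44.9 CPM with CF Im25 siRNA, 47.2 CPM with CF Im59 siRNA, 32.4 CPM with scrambled siRNA and 31.7 CPM without siRNA. The RNase I scrambled library was 25.7 times the alkaline scrambled one (22.8 to 29.1). Within a method the ratios over scrambled siRNA were 0.581 (0.558 to 0.606) for CF Im68, 1.39 for CF Im25 and 1.46 for CF Im59, none of them a call. The last called site, 198351310, was taken as the end of the mRNA. It held 93.8% of the reads with CF Im68 siRNA and 91.5% in its control. In the alkaline libraries it held 82.5% with CF Im25 siRNA, 83.8% with CF Im59 siRNA, 68.3% with scrambled siRNA and 75.6% without siRNA. In CPM this site gave 454 and 762 in the RNase I libraries and 22.1 to 39.5 in the alkaline ones. Most of the difference between methods thus lay at this site. Sites 198355910 and 198359417 held at most 6.76% and 4.98%. The upstream site of its pair, 1299 nt away, took 2.91% of the pair with CF Im68 siRNA and 3.30% in its control, and 5.29% with CF Im25 siRNA, 5.98% with CF Im59 siRNA, 13.5% with scrambled siRNA and 8.53% without siRNA.

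HSPE1, which encodes the partner chaperonin Hsp10, lies next to HSPD1 on the opposite strand in the GENCODE annotation of GRCh38. Of 3 plus-strand sites within 5 kb past the HSPD1 window, the most used, 198368173, gave 191 CPM with CF Im68 siRNA and 164 CPM in its control, and 18.1 CPM with CF Im25 siRNA, 27.0 CPM with CF Im59 siRNA, 33.6 CPM with scrambled siRNA and 26.2 CPM without siRNA. RNase I was 4.89 times alkaline here in scrambled cells, and the site was not assigned to a gene, since an annotation of hg19 was not used.

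**Figure D4:**
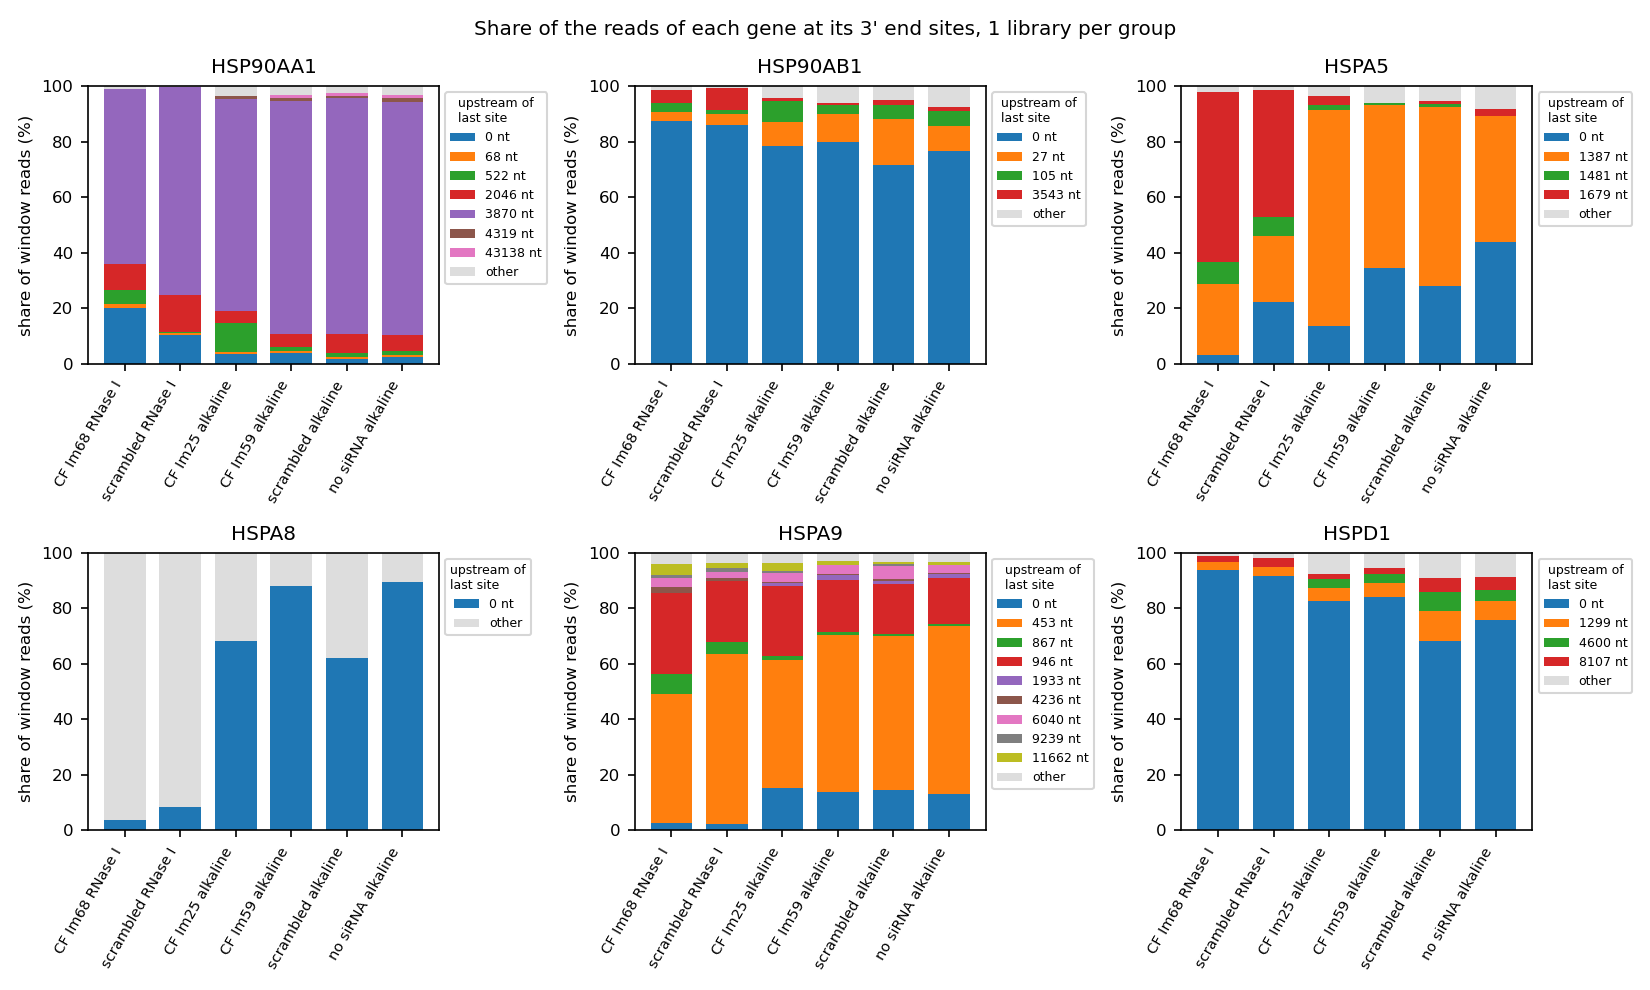
Share of each gene's reads at its sites per library, stacked and coloured by the distance upstream of the gene's last site, with all other reads in grey. In the RNase I libraries the most upstream HSPA5 site held the most reads (61.1% and 45.7%), and HSP90AA1 reads lay mostly at 1 site in every library (62.7% to 84.6%).

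The calls in total reads are given beside those over all units. With CF Im68 siRNA 1 of 6 was lower (HSP90AA1) and 0 were higher, where 6.96% of 13531 units were lower and 11.2% were higher. With CF Im25 siRNA 0 of 5 were called in either direction, where 13.1% of 14983 units were higher and 12.1% lower. With CF Im59 siRNA 1 of 6 was lower (HSP90AA1) and 0 were higher, where 11.1% of 15257 units were lower and 8.61% higher. Between scrambled siRNA and no siRNA 1 of 5 was higher (HSPA5) and 0 were lower, where 4.3% of 16791 units were higher and 4.29% lower. HSPA8 had too few reads for the rule in the comparisons with 5 genes. The median log2 ratio of the genes tested was -0.22 against 0.08 over all units for CF Im68, -0.23 against -0.00 for CF Im25, 0.17 against -0.06 for CF Im59 and 0.30 against 0.04 for scrambled siRNA over no siRNA.

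Between the fragmentation methods the genes stood on 1 side. In scrambled cells 3 of 5 were higher in the RNase I library (HSP90AA1, HSP90AB1 and HSPD1) and 0 were lower, where 23.8% of 14135 units were higher and 34.8% lower. HSP90AA1 was 4.15 times (4.02 to 4.29) and HSP90AB1 2.31 times (2.04 to 2.61) the alkaline level, and HSPA9 was 1.32 times. The median log2 ratio was 1.21 for the 5 genes and -0.32 for all units. Each method had its own scrambled sample, and fragmentation and sample cannot be told apart.

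Of the 5 genes with a pair of sites, HSPA5 with CF Im68 siRNA was the 1 called. For CF Im68 1 of 5 moved to the proximal site and 0 to the distal one, where 24.4% of 5291 pairs moved to the proximal and 1.78% to the distal site. For CF Im25 0 of 5 moved either way, where 18.3% of 6702 pairs moved to the proximal and 2.81% to the distal site. For CF Im59 0 of 5 moved, where 2.53% of 6889 pairs moved to the proximal and 4.76% to the distal site. For scrambled siRNA over no siRNA 0 of 5 moved, where 2.52% of 7177 pairs moved to the proximal and 1.21% to the distal site. For RNase I over alkaline 0 of 5 moved, where 24.7% of 5014 pairs moved to the proximal and 21.1% to the distal site. That comparison includes the HSPA9 pair, whose downstream site had a different most used position in each method. The median change of the 5 genes was 2.14 points against 5.51 over all pairs for CF Im68, 2.43 against 4.19 for CF Im25 and -6.37 against -1.19 for CF Im59. It was 4.99 against 1.15 for scrambled siRNA over no siRNA and -10.2 against 1.62 for RNase I over alkaline. CF Im25 and CF Im59 share their control library, and for HSPA5, HSPA9 and the added HSP90AA1 pair their own changes were 15.6 and -6.37, 11.1 and 0.23, and 25.3 and -25.3 points. The other pairs of most used sites had like changes with both siRNAs. These were 2.43 and 2.32 points for HSP90AA1, -8.56 and -7.45 points for HSP90AB1, and -8.22 and -7.53 points for HSPD1.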

How the data were processed

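The authors deposited, per library, whole-number counts of reads ending at each nucleotide and strand. Coordinates are hg19 (GRCh37) per the submitters' processing notes. No label or file names the aligner or the filters, or how duplicates, internal priming and reads with several matches were handled (not given in the sources used here). Ends within 25 nt of the highest remaining position of the equally weighted libraries were joined into a site, and sites with a mean CPM of at least 1 were kept. The pair of a gene is its 2 sites with the highest mean share over the 6 libraries, each at least 5%. Ratios have exact conditional intervals, shares Wilson intervals and differences of shares Newcombe intervals (Python 3.11.15, numpy 2.4.6, pandas 2.3.3, scipy 1.17.1). TMM factors came from edgeR 4.0.16 in R 4.3.3. The calls were tested on simulated data with counting error only, which hold no spread between libraries and so cannot show how often such spread gives a call. All 6 genes are named in every comparison, and sites with at least 1% of the reads in 1 library are described. Genes, lists and tests were chosen with earlier results of these data known. Sequences are GENCODE v29 mRNA sequences, and pseudogene symbols are from RefSeq (GRCh38.p14). Other chaperone genes and the siRNA targets were not analysed here, since an annotation of hg19 was not used.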

Additional observations from a re-analysis of the deposited data

Results flagged for a closer look

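Reads on the strand opposite to 2 of the genes appeared in data that no comparison above uses. In the HSP90AB1 window they numbered 83 to 690 per library, and in the HSPA5 window 363 to 1040 per library, all above the 3 reads that a count of 0 allows. Their most used positions were 44221844 beside HSP90AB1 and 127996279 beside HSPA5. Which transcripts they end was not analysed here.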

How the results depend on the processing

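No paired analysis was possible because each group held 1 library, and no replicate could be left out. No result called in the main run changed sign under any alternative run, but results that were not called did. The number of the 6 genes called in total reads was 0 for CF Im59 with TMM scaling and with median of ratios scaling, and 1 for CF Im25 against cells without siRNA. Against these cells the 1 call for CF Im59 was HSPA8, higher at 3.78 times (2.19 to 6.78), and not HSP90AA1. For RNase I over alkaline 4 genes were called with TMM, with median of ratios and with reads of called sites alone, HSPA5 being added. At 1.5-fold it was 2 for CF Im25, 2 for CF Im59, 2 for CF Im68 and 2 for scrambled siRNA over no siRNA. The number called in proximal share was 1 for CF Im25 against cells without siRNA and 1 for RNase I over alkaline with sites of 10 nt (HSP90AB1). At 10 points it was 2 for CF Im25, 2 for CF Im68, 1 for scrambled siRNA over no siRNA and 3 for RNase I over alkaline. The shares of all units or pairs called at 1.5-fold, at 10 points or with other scalings are not given here. These counts of genes therefore cannot be set against a general rate. With no minimum of reads, 6.13% of pairs moved for scrambled siRNA over no siRNA. For CF Im68, TMM scaling left HSP90AA1 under 2-fold and brought HSPA8 over it (log2 ratio 1.07). TMM moved the median of all units by 0.18 for CF Im68, by -0.11 for scrambled siRNA over no siRNA and by 0.18 for RNase I over alkaline. Of the called units 61.6% were higher for CF Im68, against 76.0% with TMM, and 50.04% for scrambled siRNA over no siRNA, against 36.6%. The causes were not tested. HSPA8 had 12 to 52 reads per library (1.15 to 4.75 CPM), with the lowest CPM in the deepest library, that without siRNA. The 50 nt rule joins the HSP90AB1 pair, which then gives no value.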
